A study of Mus musculus with 6 samples.

Results

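Native TH2B in the total germ cells of wild-type mice gave 13368 islands on the 19 autosomes, of 46507 islands in the 3 lists of the series. An island is a broad stretch of enriched reads that a peak caller builds by joining neighbouring windows. The members were all islands on chromosomes 1 to 19 of the wild-type list, and the 214 islands on X and Y in that list were set aside. TH2B is a variant of the core histone H2B made in the testis. It takes the place of somatic H2B in nucleosomes as male germ cells pass through meiosis, and it stays in chromatin until histones give way to transition proteins and protamines in late spermatids. ChIP-seq of such a core histone measures where nucleosomes carrying it are over-represented against input chromatin, and a histone spread through most chromatin is known to give wide and shallow enrichment.

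The whole series held 6 samples, 3 of them ChIP libraries and 3 inputs. The 2 samples used here were 1 ChIP library and 1 input library from adult wild-type mice. The ChIP library was made from a suspension of all spermatogenic cells with an antibody to TH2B itself, with no tag on the protein. The suspension was not sorted, so meiotic and post-meiotic cells, and any other cell in it, were read together. The labels of these samples give neither the mouse strain nor the number of animals, and the input carries the TH2B antibody among its labels although its title calls it an input. The title was followed, and the control reads of the list were taken to be this input. If that library were a ChIP, none of the folds here would be folds over input. Each group being a single library, no value has a replicate check and no condition was tested. Intervals are at the 95% level, and none covers variation between animals or libraries. Those of folds cover the counting error of reads. Those of medians, shares and islands per Mb treat islands as independent draws and are no replicate check. Neither library had molecular identifiers given in its labels. No ChIP of cells without TH2B was among the samples, and how much of a fold is specific to TH2B was not tested.

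The typical island was 2.6 kb long and only modestly enriched. The median length was 2600 bp, with 5% of islands at or below 1200 bp and 5% at or above 4800 bp. The median fold, which is ChIP reads over input reads after scaling by the list's constant of 0.989, was 1.45 (1.45 to 1.46 for the median). The island closest to all medians was chr2:161437401-161440000 (mm9), with 122 ChIP and 85 input reads in 2600 bp and a fold of 1.45 (1.09 to 1.94). A single island of this kind was therefore known to no better than that interval. Together the islands covered 36.9 Mb, or 1.49% of the autosomes, and held 1775998 ChIP reads and 1248693 input reads. Summed over all islands the fold was 1.44 (1.43 to 1.44), so 30.5% of the scaled ChIP reads inside islands lay above the input level. The fold reached 2 in 835 islands (6.25%, 5.84 to 6.67), beside 6.25% of the wild-type list with X and Y included. A fold of 3 was reached by 66 islands, or 0.494%, beside 0.493% in the whole list. At a fold of 1.5 the count was 5539, or 41.4%, beside 41.4% in the whole list. A deposited FDR of 0.0001 or less was given to 5960 islands, or 44.6%, beside 44.4%.

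**Figure D1:**
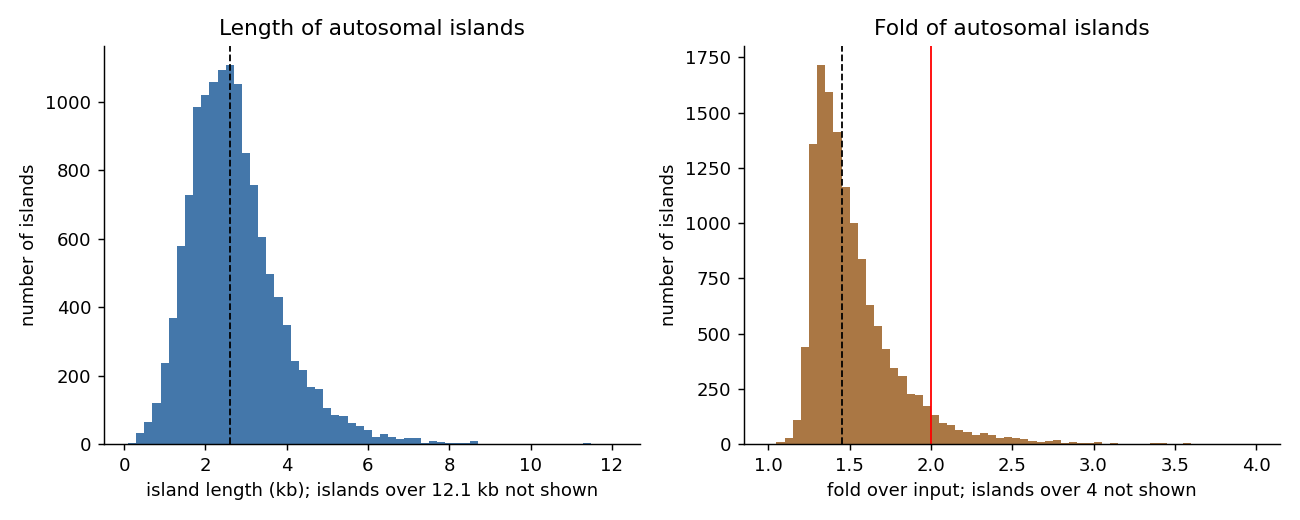
Histograms of island length in kb (left) and of fold over input (right) for the 13368 autosomal islands, with the number of islands on the vertical axes. Dashed lines mark the medians of 2600 bp and 1.45, and the red line marks a fold of 2, with 6.25% of islands at or above it.

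Lengths came in steps of the 200 bp window and formed 1 broad peak. The commonest length was 13 windows, or 2600 bp, with 1108 islands (8.29%), and the neighbouring lengths of 2400 and 2800 bp held 1094 and 1053. A single window was an island in 3 cases, and 61 islands (0.456%) were longer than 8000 bp. Islands of 2200 to 4000 bp made up 58.4% of the list and 61.4% of the covered length. The list thus consisted mostly of stretches of 2200 to 4000 bp, with few narrow and few very wide members.

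Both the ChIP and the input density were narrowly spread in most islands. Input density had a median of 32.7 reads per kb, with the middle 50% of islands between 29.2 and 36.2. ChIP density had a median of 47.5 reads per kb, with the middle 50% between 43.4 and 52.9. No island had fewer than 29.5 ChIP reads per kb, while input went down to 5 reads per kb. The upper tail was long in both, since the highest densities were 811 ChIP reads and 691 input reads per kb. Across the 13368 islands, which share 1 pair of libraries, the 2 log2 densities had a Pearson r of 0.634 and the densities a Spearman rho of 0.561. All of these islands had been chosen by the caller for ChIP reads above the scaled input. How much of the correlation and of the lowest ChIP density came from that choice was not tested.

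**Figure D2:**
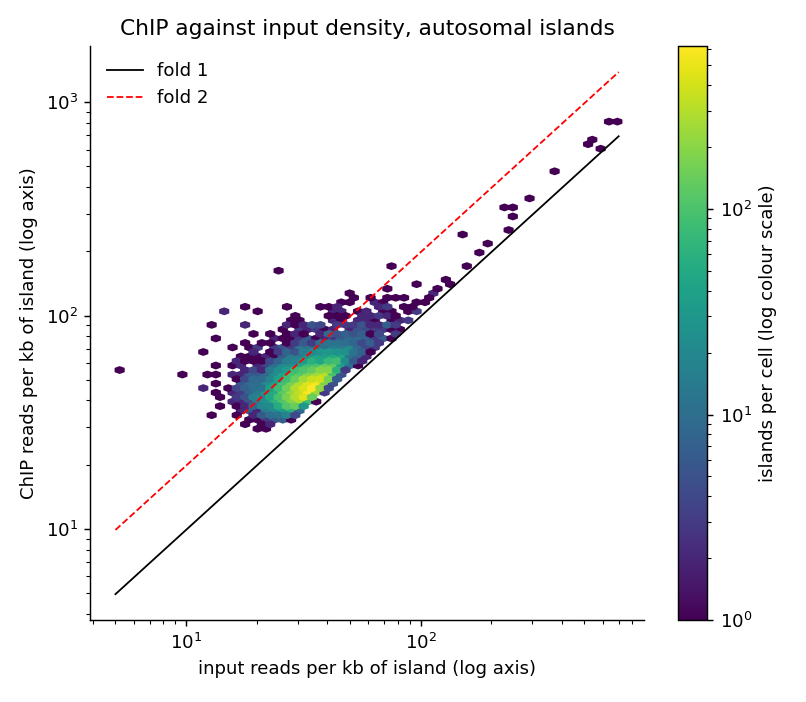
ChIP reads per kb against input reads per kb, both on log axes, with colour for the number of islands per cell. The black line is a fold of 1 and the red dashed line a fold of 2. Most islands lie near 32.7 input and 47.5 ChIP reads per kb, and the few beyond 200 input reads per kb lie close to the line of fold 1.

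The list was a selection by the caller, and its rule could be read from the values. The deposited p of every island was within 1% of a one-sided Poisson p that takes the scaled input count as exact. The deposited FDR, p and rank gave the same number of candidate islands, 29350, at every island, so 46.3% of the candidates had entered the wild-type list. Folds above 1 in the list are therefore given by the choice of islands. When the counting error of the input was included, the interval of the fold reached 1 or below in 2161 of the autosomal islands (16.2%, 15.5 to 16.8), beside 16.3% in the whole list. In the remaining 11207 (83.8%, beside 83.7% in the whole list) the interval lay above 1, and in 48 (0.359%, beside 0.353% in the whole list) the lower bound was at least 2.

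Fold fell steadily with island length. Its median was 1.88 (1.81 to 1.93) in 459 islands of 200 to 1000 bp, 1.57 (1.56 to 1.58) in 3682 islands of 1200 to 2000 bp and 1.42 (1.42 to 1.42) in 7803 islands of 2200 to 4000 bp. It was 1.303 (1.29 to 1.31) in 1363 islands of 4200 to 8000 bp and 1.17 (1.15 to 1.19) in the 61 longer ones. The median of the shortest class was 1.599 times that of the longest (1.52 to 1.68). Folds of at least 2 were found in 184 of the shortest islands (40.1%, 35.6 to 44.7), in 198 of those of 2200 to 4000 bp (2.54%, 2.20 to 2.91) and in 0 of the 61 longest, which allows up to 5.87%. ChIP density fell from a median of 74 reads per kb in the shortest class to 42.7 at 4200 to 8000 bp, while input density went from 40 to 32.6. Both were higher again in the 61 longest islands, at 67.7 ChIP and 57.7 input reads per kb. The lowest ChIP density in the list also depended on length. It was 54 reads per kb at 200 to 1000 bp, 38 at 1200 to 2000 bp and 29.5 at 2200 to 4000 bp. How much of the order of the densities came from this limit of the list was not tested.

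The lowest fold in the list also moved with the number of reads, and this was measured beside the trend in length. Islands with 32 to 59 ChIP reads had a median fold of 1.99 and none below 1.42. At 100 to 149 reads, where 50.7% of islands lay, the median was 1.44 and the lowest fold 1.24. The 62 islands with 513 reads or more had a median of 1.14 and a lowest fold of 1.06. Short islands had few reads, with a median of 65 ChIP reads up to 1000 bp against 128 at 2200 to 4000 bp and 795 above 8000 bp. How much of the fall of fold with length came from this moving floor was not tested.

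**Figure D3:**
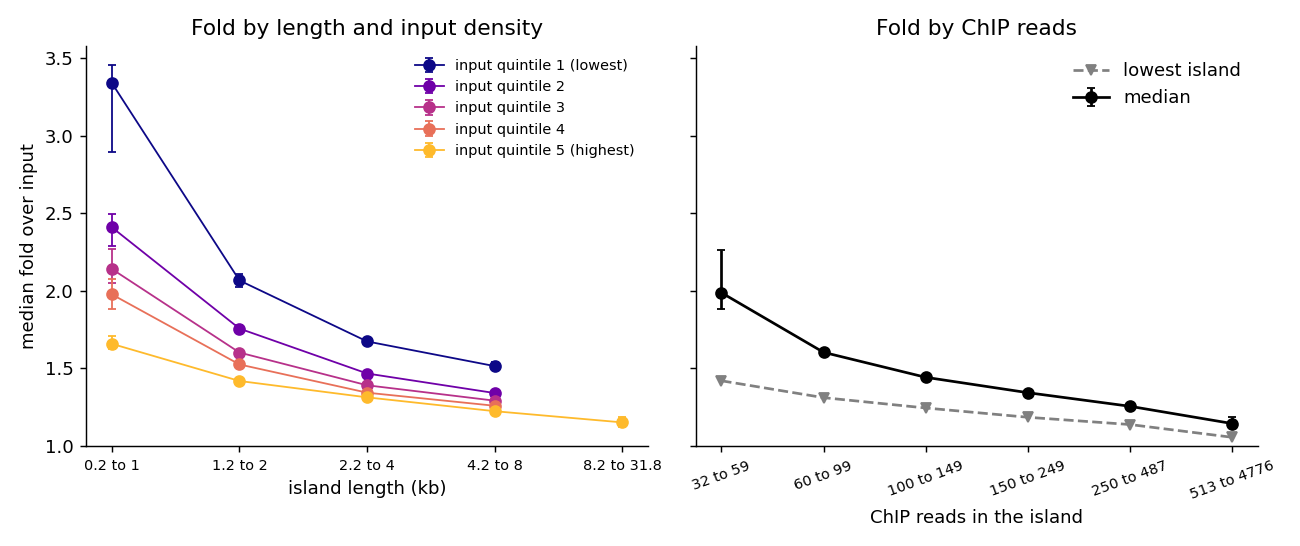
Left, median fold by island length in kb, with 1 line for each quintile of input density and points of under 20 islands left out. Right, median and lowest fold by the number of ChIP reads, with bars for 95% intervals of medians over islands. Median fold falls along every line. In the lowest input quintile it falls from 3.34 to 1.51 at 4200 to 8000 bp, where that line ends. In the highest it falls from 1.66 to 1.22 at 4200 to 8000 bp and to 1.15 in longer islands. The lowest fold falls from 1.42 to 1.06 with reads.

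Fold was also higher where input was sparse. In the lowest quintile of input density, from 5 to 28.3 reads per kb, the median fold was 1.74 (1.73 to 1.75). It was 1.496, 1.42 and 1.37 in the next quintiles and 1.37 (1.36 to 1.38) in the highest, which ran from 37.2 to 691 reads per kb. The lowest quintile held 632 of the 835 islands with a fold of at least 2, which was 23.5% (21.9 to 25.1) of its islands, and the highest held 38 (1.43%, 1.02 to 1.96). Input reads are the denominator of the fold, so part of this order is built into the measure. Median ChIP density rose from 43.8 to 55.8 reads per kb between these quintiles while median input density rose from 26 to 40. The lowest ChIP density in the list rose as well, from 29.5 to 43.5 reads per kb, and its part in the rise of the median was not tested. The reads above input, taken per kb, were 18.8 in the lowest quintile, 13.3 in the fourth and 15.2 in the highest.

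Fold fell with length within each quintile of input density, and with input density within each length class up to 8000 bp. In the lowest input quintile the median fold fell from 3.34 (2.90 to 3.46, 60 islands) at 200 to 1000 bp to 1.51 (1.49 to 1.54, 218 islands) at 4200 to 8000 bp. In the highest input quintile it fell from 1.66 (1.62 to 1.71, 274 islands) to 1.22 (1.22 to 1.23, 210 islands) over the same lengths. Among islands of 2200 to 4000 bp the medians ran from 1.67 to 1.31 over the quintiles. The lowest fold in the list moved along with these medians. In the lowest quintile it was 2.20 at 200 to 1000 bp and 1.22 at 4200 to 8000 bp. In the highest quintile it was 1.19 and 1.09 at these lengths. How much of the 2 orders came from this floor was not tested. Input density was highest at both ends of the range of lengths, since 274 of the 459 shortest and 48 of the 61 longest islands lay in its highest quintile. The Spearman rho of -0.181 between length and input density does not show such a shape. It was -0.527 between fold and length and -0.516 between fold and input density. These are descriptions across islands of 1 library pair.

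The islands of highest fold were short and poor in input. Among islands with at least 50 ChIP reads, chr12:116851201-116852200 had 55 ChIP and 5 input reads and a fold of 11.1 (4.49 to 35.6). The island ranked sixth, chr8:77150601-77151200, had 54 and 11 reads in 600 bp and a fold of 4.96 (2.57 to 10.5), and chr16:95597201-95597800 had the same counts. The next were chr13:67014001-67015000 with 72 and 16 reads and a fold of 4.55 (2.62 to 8.38), and chr14:13320801-13322200 with 80 and 19 reads and a fold of 4.26 (2.56 to 7.44). All 10 of the highest lay in the lowest quintile of input density, which is partly built into a ranking by fold over input. Of these islands 0 had a neighbour within 10 kb, as was so for 83.5% of all autosomal islands. Their intervals overlap each other, so the order among them is not resolved. Below 50 ChIP reads there were 40 further islands, with folds up to 7.08.

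The longest and the most read-rich islands were largely the same ones, and their folds were close to 1. Of the 10 longest, 7 were among the 10 with most ChIP reads. The island with most reads, chr8:19745601-19764400, held 4776 ChIP and 4549 input reads over 18800 bp and had a fold of 1.06 (1.02 to 1.11). The second, chr17:13733401-13748200, held 4383 and 3793 reads and had a fold of 1.17 (1.12 to 1.22). Near the centromeric end of chromosome 16, chr16:3231401-3250400 and chr16:3251801-3269400 stood 1400 bp apart with folds of 1.09 (1.03 to 1.14) and 1.26 (1.16 to 1.38). These neighbours differed beyond counting error, at input densities of 162 and 51.0 reads per kb. The read-richest 1% of islands, 134 in number, held 5.86% of the ChIP reads but 2.67% of the reads above input, and their median fold was 1.19.

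The islands of densest input were mostly narrow. The first, chr9:24345201-24346800, had 691 input and 798 ChIP reads per kb over 1600 bp and a fold of 1.17 (1.08 to 1.27). It was followed by chr5:37051801-37052800 with 642 input reads per kb and a fold of 1.28 (1.15 to 1.42), and by chr4:64157001-64159200 with 571 and a fold of 1.09 (1.01 to 1.18). Of the 10 densest, 1 was among the 10 longest and 2 were among the 10 with most ChIP reads, namely the chr8 and chr17 islands that led in reads. Their input lay far above the median of 32.7 reads per kb, and their folds were between 1.06 and 1.298.

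Neighbouring islands mostly stood far apart compared with their own length. The distance from the end of an island to the start of the next had a median of 92.6 kb (89.8 to 95) and a mean of 177 kb over 13349 distances. The middle 50% lay between 34.4 and 207 kb, and the coefficient of variation was 1.64. The shortest distance was 800 bp, found 88 times, because islands separated by up to 600 bp had been joined by the caller. Distances of up to 2 kb made up 2.24% (1.996 to 2.51), those from 50 to 200 kb 41.5%, and those over 1 Mb 1.75% (1.54 to 1.99).

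Close neighbours resembled each other in input more than in fold. At distances of up to 2 kb the log2 input densities of adjacent islands had a Pearson r of 0.524 (Spearman rho 0.364, 299 pairs). The r was 0.306 at 2 to 10 kb and 0.0598 at 50 to 200 kb (5535 pairs). For log2 fold it was 0.0800 (rho 0.127) up to 2 kb, 0.101 at 2 to 10 kb and 0.00656 at 50 to 200 kb. For log2 ChIP density it was 0.435 (rho 0.313) up to 2 kb, 0.197 at 2 to 10 kb and 0.0464 at 50 to 200 kb. The measured fold of an island thus told little about that of the next one, even at short range. Single folds are imprecise, with an interval of 1.09 to 1.94 in the typical island. How much this lowered the r of fold was not tested. The pairs share both libraries, and no p was computed.

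Most islands stood alone. With islands chained where 10 kb or less separated them, 11162 (83.5%) had no neighbour and 2206 (16.5%, 15.9 to 17.1) lay in 1029 clusters. Of the clusters 908 were pairs, 100 held 3 islands and 18 held 4. Clustered islands had a median fold of 1.44 (1.43 to 1.44) and single ones 1.45 (1.45 to 1.46), and 5.62% (4.70 to 6.67) and 6.37% (5.92 to 6.84) of them reached a fold of 2, with overlapping intervals. Their median lengths were both 2600 bp. The intervals of the medians did not overlap, and the fold of summed reads was 1.38 in clusters and 1.45 for single islands, and 1.31 in clusters of 3 or more. Of the 10 longest islands 9 lay in clusters.

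The 2 largest clusters were nearly continuous and lay on dense input. The cluster of 7 islands at chr13:12937401-13013200 filled 84.96% of its 75.8 kb, with folds from 1.14 to 1.31 and a median input density of 59.0 reads per kb. The cluster of 6 at chr4:147125801-147187600 filled 77.7% of 61.8 kb, with a median fold of 1.22 and an input density of 51.4. By contrast, the cluster of 5 at chr8:88833601-88877200 filled 34.4% of 43.6 kb with a median fold of 1.43 at an input density of 35. Of the clusters of 4, the first in genome order, chr1:161635201-161665800, had a median fold of 1.54 at an input density of 29.7, and chr3:106078601-106114400 had 1.40 at 46.5.

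**Figure D4:**
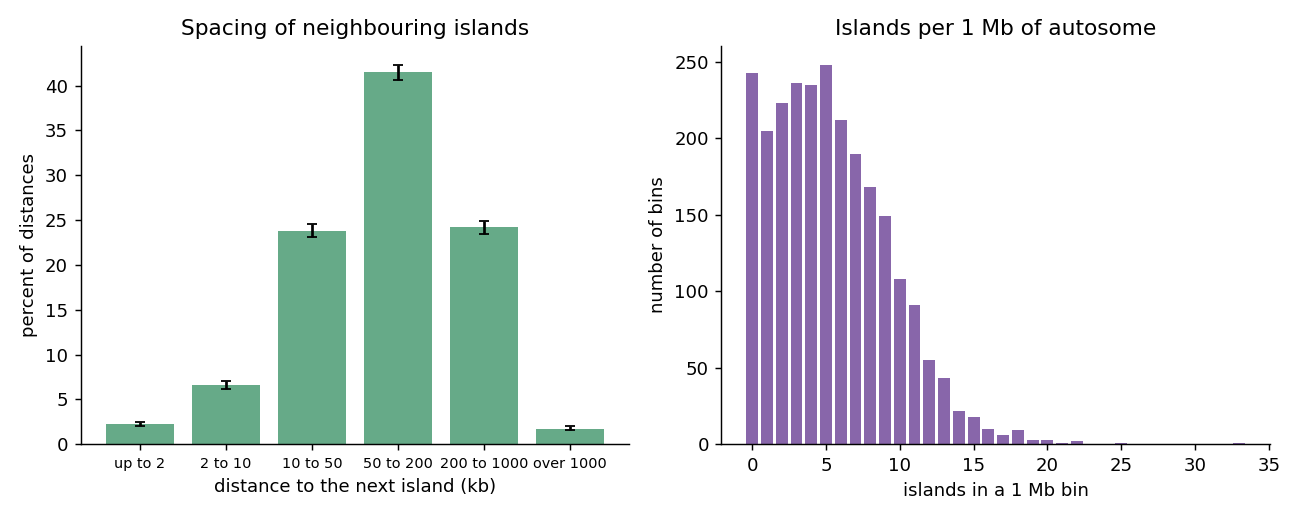
Left, percent of the 13349 distances between neighbouring islands in classes of distance in kb, with exact 95% intervals. Right, number of 1 Mb autosomal bins by the islands they held. The class from 50 to 200 kb is the fullest with 41.5%, and the bins run from 0 to 33 islands with a median of 5.

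Over longer stretches islands were unevenly spread. The 2482 autosomal bins of 1 Mb held 5.39 islands on average, and the variance of the counts was 2.91 times their mean. There were 243 empty bins (9.79%), of which 57 were the first 3 bins of each autosome, before the first island at 3.0002 to 4.92 Mb. Whether reads could be placed in those first 3 bins was not examined, so their emptiness says nothing about TH2B there. Bins with 10 or more islands numbered 373 (15.03%) and held 34.0% of all islands. The island counts of adjacent bins had a Pearson r of 0.475 (Spearman rho 0.496, 2463 pairs), and the r was 0.348 at 2 Mb, 0.194 at 5 Mb and 0.0813 at 20 Mb. Island counts were thus alike over a few Mb and much less so beyond 10 Mb.

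Islands in rich bins had slightly lower folds than islands in poor ones. The median fold was 1.505 (1.49 to 1.52) in bins of 1 to 4 islands, 1.45 (1.44 to 1.46) at 5 to 9, 1.43 (1.42 to 1.44) at 10 to 14 and 1.41 (1.40 to 1.43) at 15 to 33. The share with a fold of at least 2 was 9.96% (8.77 to 11.3) in the poorest class and 4.60% (3.35 to 6.15) in the richest, beside 6.25% in the whole list. Input density moved with it, from a median of 31.5 reads per kb in the poorest class to 34.8 in the richest. The median number of ChIP reads per island went from 113 to 128 and the median length from 2400 to 2600 bp between these classes. The part of input density, reads and length in the order of the folds was not tested. Islands next to a distance of over 1 Mb stood at the far end of this order, with a median fold of 1.54 (1.51 to 1.59), a share of 13.7% at a fold of 2 and a median input density of 30.5.

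The densest bin lay on chromosome 4, from 146 to 147 Mb, with 33 islands that covered 25.9% of it. Its median fold was 1.26 and its median input density 60.5 reads per kb. The bin before it, from 145 to 146 Mb, held 22 islands with a median fold of 1.41 at an input density of 42.4. The other bins among the densest 5 had ordinary input: 25 islands on chromosome 16 from 97 to 98 Mb with a median fold of 1.42 at 34.4 reads per kb, 22 from 23 to 24 Mb of the same chromosome with 1.37 at 33.0, and 21 on chromosome 12 from 30 to 31 Mb with 1.43 at 33.1. A fold of 2 was reached by 3 of the 33 and 2 of the 22 islands in the bins of chromosome 4, and by 0, 1 and 0 islands in the other 3 bins, beside 6.25% in the whole list. These counts are too small to rank the bins.

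The longest stretch without an island lay on chromosome 7, chr7:39347201-46391600, and measured 7.04 Mb. It was followed by chr15:44995401-50120800 with 5.13 Mb, chr14:88107601-92248200 with 4.14 Mb, chr16:66481401-70526200 with 4.04 Mb and chr1:47026001-51017400 with 3.99 Mb. Reads outside islands were not used here, so the level of TH2B in these stretches is not known.

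Autosomes differed in the density of islands, while their median folds were close. Chromosome 11 had the highest density with 7.12 islands per Mb (6.66 to 7.61), then chromosome 9 with 6.54 (6.09 to 7.002) and chromosome 19 with 6.29 (5.68 to 6.95). The lowest were chromosome 3 with 3.96 (3.66 to 4.28), chromosome 10 with 4.11 (3.77 to 4.47) and chromosome 1 with 4.63 (4.34 to 4.95). The highest was 1.799 times the lowest (1.62 to 1.996). In the order of densities all 18 pairs of neighbours had overlapping intervals, so only distant ranks are resolved. These intervals treat islands as independent and are too narrow where islands cluster.

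The median fold of an autosome stayed between 1.43 and 1.47, and its median input density between 31.4 and 33.3 reads per kb. The median length was 2600 bp on every autosome but chromosome 13, where it was 2400 bp. The share of islands with a fold of at least 2 ranged from 3.92% on chromosome 11 to 8.29% on chromosome 19. Across the 19 autosomes islands per Mb had a Pearson r of -0.531 with median fold (Spearman rho -0.471), 0.554 with median input density (0.485) and -0.269 with chromosome length (-0.258). These are descriptions of 1 library pair. Chromosome 16 was the most uneven, with a variance of 4.08 times the mean over its 1 Mb bins, and chromosome 18 the least with 1.85.

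Along the autosomes, islands were denser toward the distal end. Mouse autosomes carry the centromere at the start of their coordinates. Density was 3.52 islands per Mb (3.29 to 3.76) in the first decile of each autosome, which includes the island-free first 3 Mb, between 4.76 and 6.38 in the deciles from the second to the ninth, and 7.07 (6.74 to 7.41) in the last. The last decile held more islands than the first on 16 of 19 autosomes. Counted from the first island and so without the empty start, the first 5 Mb held 5.16 islands per Mb (4.71 to 5.64) and the last 5 Mb before the last island 7.37 (6.83 to 7.94), and the last was richer on 13 of 19. Autosomes spread widely, from 7 to 69 islands in the last 5 Mb and from 9 to 48 in the first. Median fold hardly changed along the way, at 1.46 (1.43 to 1.49) in the first 5 Mb and 1.43 (1.41 to 1.45) in the last, with overlapping intervals.

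**Figure D5:**
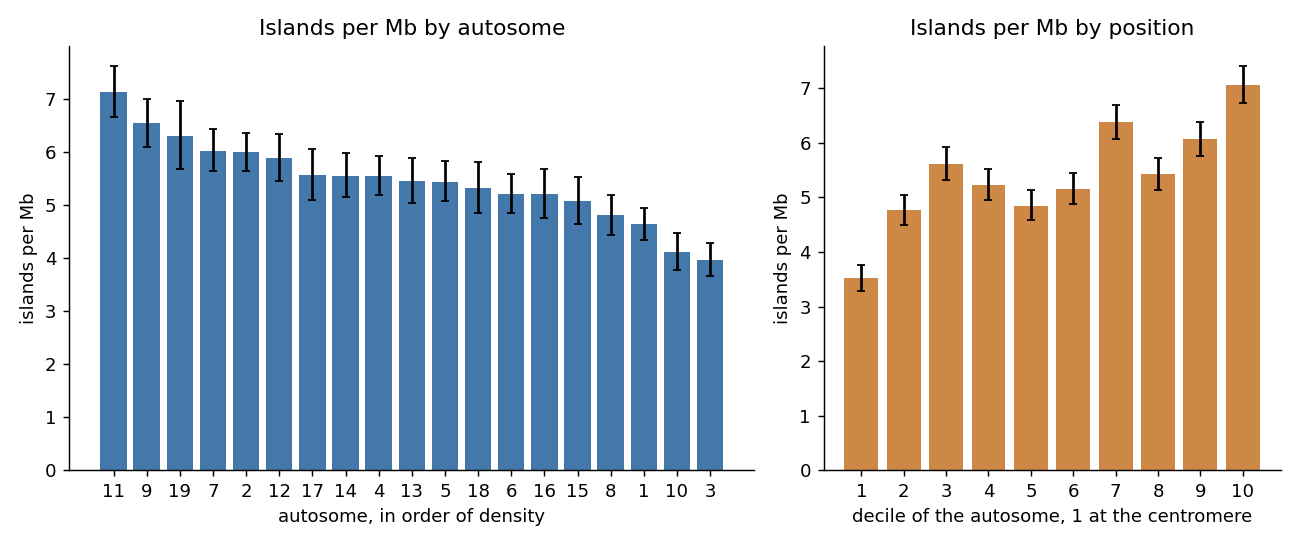
Islands per Mb for each autosome in order of density (left) and for each decile of the autosomes from the centromere (right), with exact 95% Poisson intervals of the counts. Density runs from 7.12 on chromosome 11 to 3.96 on chromosome 3, and from 3.52 in the first decile to 7.07 in the last. The first decile includes the first 3 Mb of each autosome, which held no island and lower its density.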

How the data were processed

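ChIP and input libraries of wild-type germ cells were sequenced as paired ends, per the labels' protocols. The submitters' processing notes name SICER as the island caller and mm9 as the build. A 200 bp window, a 600 bp gap and an FDR of 0.01 come from the name of the deposited list. Aligner, versions and read filters: not given in the sources used here. The list has no header. For each island the authors deposited counts of ChIP and of control reads, a p-value, a fold ratio and an FDR, as read from the values. Fold was recomputed as the ratio of counts over the list's constant (0.989). Library totals were not used here, so depth is known inside islands only. Intervals are exact binomial for shares, conditional binomial for folds, exact Poisson for counts and order-statistic for medians. Named islands, clusters, bins and distances are the first 10 or 5 by fold (at least 50 ChIP reads), length, input density, reads or island number. The members, classes and rules were chosen with earlier results of these data known. Quintiles are of input density, and bins count islands by midpoint. Positions count from 1. Chromosome lengths of mm9 came from GenomeInfoDb 1.38.1. No gene annotation or sequence of that build was used here. Python 3.11.15, numpy 2.4.6, pandas 2.3.3, scipy 1.17.1 and matplotlib 3.10.9 were used, and the measures were tested on simulated islands. Alternatives covered the FDR, reads, input density, joining distance and bin size.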

Additional observations from a re-analysis of the deposited data

How the results depend on the processing

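Of 48 alternatives, 20 stayed within the interval of the value (for the variance ratio, within 1.5 times) and 28 moved out of it. Whether a direction turned was not checked. Those with the interval above 1, without chromosome 4 from 145 to 148 Mb and without the first 3 Mb were chosen after seeing the data. In the order median fold, pooled fold, share at a fold of 2, median length, median distance, share in clusters and variance ratio, an FDR of 0.0001 (5960 islands) gave 1.65, 1.61, 14.01%, 2400 bp, 226.8 kb, 8.31% and 1.65. At least 100 ChIP reads gave 1.41, 1.40, 2.47%, 2800 bp, 121 kb and 13.8% for the first 6. A counting interval above 1 gave folds of 1.497 and 1.47, a share of 7.45%, a distance of 113.8 kb and 14.4% in clusters. Such subsets hold fewer islands by construction, which widens distances and lowers the share in clusters and the variance ratio. The FDR and the counting interval come from the same counts as the fold. The higher folds and shares at a fold of 2 under those rules are therefore partly given by the choice. The pooled fold was 1.45 below 2 times the median input density and 1.44 (1.44434 against 1.43798) without the stretch of chromosome 4. The median fold was 1.44 with 1 read added to each count. The share was 41.4% at a fold of 1.5 and 0.359% by the lower bound. The median distance between midpoints was 95.5 kb. Islands in clusters were 9.04% at a joining distance of 5 kb and 29.0% at 20 kb. The variance ratio was 7.43 in bins of 5 Mb. The ratio of fold between the lowest and highest input quintile was 1.27, and 1.29 among islands of 1200 to 4000 bp. The cause was not tested where no construction is named. No paired analysis was possible because each group had 1 library. Leaving out a replicate was not possible for the same reason. Gene and sequence context was not run, since no genome or annotation of mm9 was used here.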

Other observations

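The part of chromosome 4 from 145 to 148 Mb, chosen after its values were seen, held 71 islands, 8.23% of those on the chromosome, and they covered 14.97% of the stretch. Its islands had a median fold of 1.2999 (1.248 to 1.40), a median length of 3400 bp and a median input density of 53.3 reads per kb. Of the 10 longest autosomal islands 4 lay there, as did 5 of the 10 with most ChIP reads. In clusters were 45 of the 71, beside 16.5% of all autosomal islands. The stretch was placed around the bin with most islands, so their closeness is partly given by that choice. A fold of 2 was reached by 6 of the 71 (8.45%, 3.16 to 17.5), beside 6.25% in the whole list. The counting interval lay above 1 in 66 of the 71 (93.0%, 84.3 to 97.7), beside 83.7% in the whole list, at a median of 221 ChIP reads per island. The stretch gave 2.03% of the ChIP reads in autosomal islands and 1.04% of those above input.

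The islands whose interval reached 1 or below were seldom the ones of lowest input density. Interval, fold and input density come from the same counts, so part of the orders below is built into the measures. The interval lay above 1 in 98.4% (97.9 to 98.8) of islands in the lowest quintile of input density and in 66.9% (65.1 to 68.7) of those in the highest, although the deposited FDR was below 0.01 in both. By fold, 38.8% (34.9 to 42.9) of the 590 islands under 1.25 had an interval above 1, and 99.7% (99.5 to 99.9) of those between 1.5 and 2.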
